A study of Mus musculus with 6 samples.

Results

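Exon bins of 4 genes used to mark neural stem cells and astrocytes, Gfap, Vim, Aldoc and Prom1, were followed in cultured cells of the mouse ventricular-subventricular zone after knockdown of the long noncoding RNA Pnky or of the RNA-binding protein gene Ptbp1. An exon bin is an exon, or a part of one, that is counted separately. The bins are all rows of these genes in the authors' deposited tables, 1 per knockdown, which list only bins whose relative usage within their gene differed from control at an adjusted p under 0.01. The rule gives 3 of the 249 bins listed for shPnky and 3 of the 958 listed for shPtbp1. Bin 2 of Gfap is in both tables, so there are 5 distinct bins of 1089, in 4 of 702 genes. Of all bins tested, 0.155% were listed for shPnky and 0.598% for shPtbp1. The bins were thus chosen by the authors' adjusted p of usage against control, and their differences from control are described below without a test. The share of all tested bins listed as higher was 0.0741% for shPnky and 0.322% for shPtbp1, and the share listed as lower was 0.0809% and 0.268%. A direction is listed for 945 of the 958 shPtbp1 bins. Of the 4 genes, each table lists 3 bins, in shPnky 1 higher and 2 lower and in shPtbp1 2 higher and 1 lower.

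The 6 libraries were poly(A)-selected and strand-specific, 2 from each of 3 groups. All came from C57/B6 mice at postnatal day 5 to 7, grown with fetal bovine serum, EGF and FGF, and all cells carried a hairpin vector with a fluorescent marker by which they were sorted. The hairpin was directed against luciferase in shCtrl, against Pnky in shPnky and against Ptbp1 in shPtbp1. Whether the replicates of a group were separate animals or cultures is not stated in the labels. Errors and p-values therefore cover the spread among these libraries alone, and that spread may be technical. The reads summed over the listed bins ranged from 1727096 to 2403866 per library in the shPnky table and from 3514859 to 3920040 in the shPtbp1 table. These are not library sizes. The targeted gene matched its label in shPtbp1: bin 13 of Ptbp1 had 22334 and 19594 reads under the control hairpin and 4967 and 4961 under shPtbp1. No bin of Pnky is listed, so its knockdown could not be checked here.

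Stem cells of the postnatal ventricular-subventricular zone have many features of astrocytes. Gfap encodes glial fibrillary acidic protein, the intermediate filament of mature astrocytes and of these stem cells, and its transcript is known to be spliced and polyadenylated in alternative ways at its 3′ end, which changes the tail of the protein. Vim encodes vimentin, an intermediate filament protein that assembles together with GFAP and is abundant in radial glia and in many cultured cells. Aldoc encodes aldolase C, the brain form of a glycolytic enzyme, which is enriched in astrocytes. Prom1 encodes prominin-1 (CD133), a cholesterol-binding glycoprotein of membrane protrusions that is used to isolate stem cells and whose transcript has several known splice forms. PTBP1 is a repressor of many alternative exons in non-neuronal cells, and Pnky is a neural noncoding RNA that associates with it.

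Gfap is taken first, because its bin 2 was the only bin of the 4 genes called in both knockdowns. This bin of Gfap (Entrez 14580) was covered by 39928 and 34852 reads with the control hairpin, by 44876 and 32026 in shPnky, and by 32261 and 30128 in shPtbp1. In raw reads the shPnky libraries lay on either side of both controls, while both shPtbp1 libraries lay below them. In the authors' deposited tables its usage relative to the rest of the gene was listed as higher in shPnky (log2 fold 0.05, fitted usage 188.9 in control and 195.2 in knockdown, adjusted p = 2.53e-18 from the authors' likelihood ratio test in DEXSeq). It was listed as lower in shPtbp1 in the authors' deposited table (log2 fold -0.03, fitted usage 200.6 and 196.3, adjusted p = 1.23e-05, same DEXSeq test). The listed directions are thus opposite in the 2 comparisons, which use the same 2 control libraries.

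The listed folds are ratios of fitted usage values, and these are not proportional to reads. In the shPnky table the fitted control value is 18.1 for Prom1 bin 2 at a mean of 95 reads, 188.9 for Gfap bin 2 at a mean of 37920.5 reads and 282.2 for Vim bin 5 at a mean of 212507 reads. The size of a listed fold is therefore comparable neither with a change in reads nor with the fold of a bin of another depth, and only its sign is set beside the reads below. The mean count of Gfap bin 2 ranked 11th of the 249 bins listed for shPnky and 10th of the 958 listed for shPtbp1.

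Counts per 1000000 listed reads (CPM), scaled by the trimmed mean of M-values (TMM, a scaling that takes most bins as unchanged), put the libraries on a common scale within a table. How many of all bins had groups that did not overlap was not counted, so overlap of the libraries is described below without a background. Over the shPnky table, Gfap bin 2 stood at 19150 and 18730 CPM in shCtrl and at 18800 and 18970 in shPnky. The groups overlapped, and the log2 change of the reads was -0.005 (SE 0.030), against a median of 0.05 over all 249 bins. Without shCtrl replicate 1 the sign of that small value turned (0.01). The higher usage listed for Gfap bin 2 in shPnky thus stood beside TMM-scaled reads that differed by less than the spread between replicates. Scaled only to the total of listed reads, both shPnky libraries (18668 and 18543 CPM) lay below both controls (19498 and 18953). The log2 change was then -0.05, a setting that moved the median of all bins by -0.04.

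Over the shPtbp1 table, Gfap bin 2 stood at 10580 and 10280 in shCtrl and at 8540 and 8179 in shPtbp1. Both knockdown libraries lay below both controls. Means were 10430 ± 209.8 and 8360 ± 254.8 (SD, n = 2), a log2 change of -0.32 (SE 0.032), against a median of 0.02 over all 958 bins. Scaled only to the total of listed reads, the value was -0.21, a setting that moved the median of all bins of that table by 0.11.

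**Figure D1:**
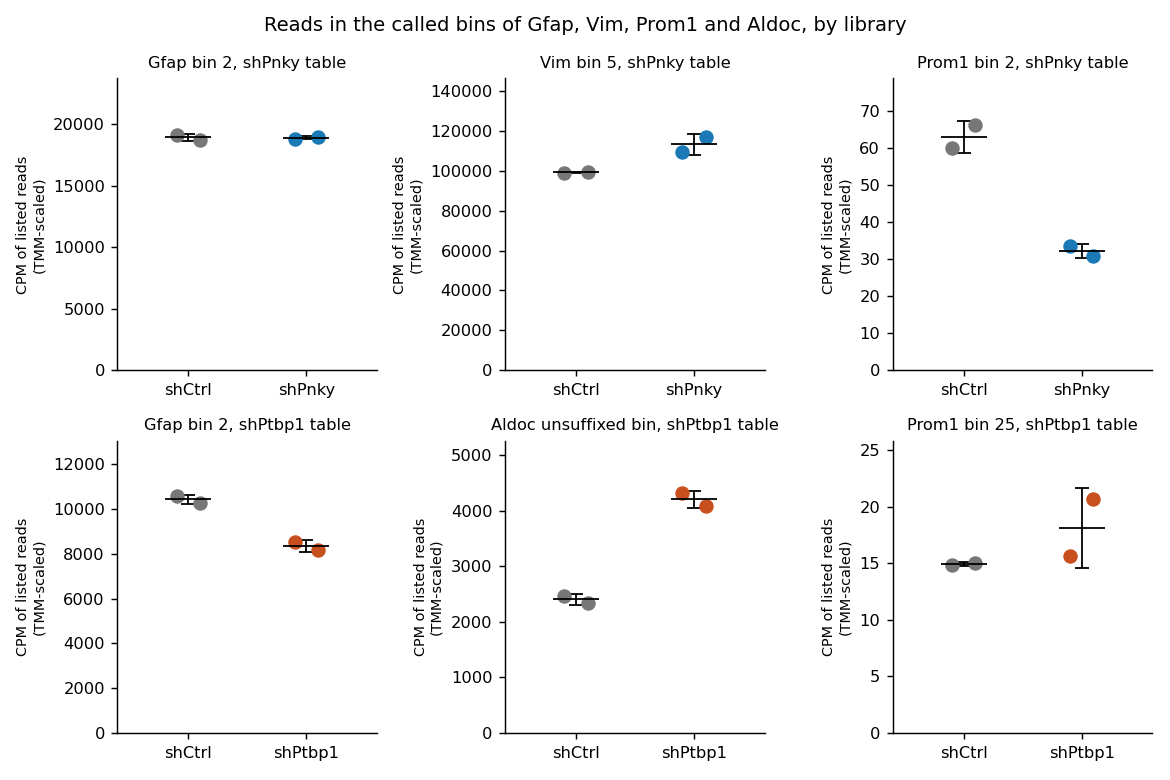
CPM of listed reads (TMM-scaled, y axis from 0) in each called bin of the 4 genes, with 1 point per library and the mean and SD of 2 libraries in black. Gfap bin 2 overlaps between shCtrl and shPnky but not between shCtrl and shPtbp1, Prom1 bin 2 has means of 63.0 and 32.2 and the unsuffixed bin of Aldoc stands at a mean of 2401 in shCtrl and 4200 in shPtbp1.

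The shPnky and shPtbp1 libraries were never compared with each other in choosing the bins, and their direct difference was tested. The counts of both groups did choose the bins, each against the same controls. Gfap bin 2 was listed with opposite signs of usage, so p-values of this contrast are not independent of that choice. Over the 118 bins in both tables, scaled together, Gfap bin 2 held 44790 and 43740 CPM in shCtrl, 42120 and 41650 in shPnky, and 35830 and 33710 in shPtbp1. The 3 groups did not overlap on this scale, and shPtbp1 was the lowest, whereas on the TMM scale of the whole shPnky table shCtrl and shPnky overlapped. The number of the 118 bins whose groups also did not overlap was not counted. Reads were 1.205-fold higher in shPnky than in shPtbp1 (41890 ± 334.6 against 34770 ± 1499, SD, n = 2; log2 difference 0.27, SE 0.033), with an adjusted p of 0.000325 by edgeR's quasi-likelihood test with Benjamini-Hochberg adjustment over the 118 bins.

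In the same test, 62.7% of the 118 bins differed between the knockdowns and 33.1% were higher in shPnky, so a difference in this direction was common among bins called in both tables. Scaled only to the total of shared reads, the log2 difference of Gfap bin 2 was 0.16 (edgeR adjusted p = 0.000769), while the median of all shared bins moved by -0.11. Reads of a single bin hold both the level of the transcript and the usage of the bin, which cannot be told apart here. In such cultures, a change in the share of cells that express Gfap and a change in Gfap RNA per cell also cannot be told apart. A test of usage within the gene needs at least 2 shared bins and could not be made for Gfap.

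**Figure D2:**
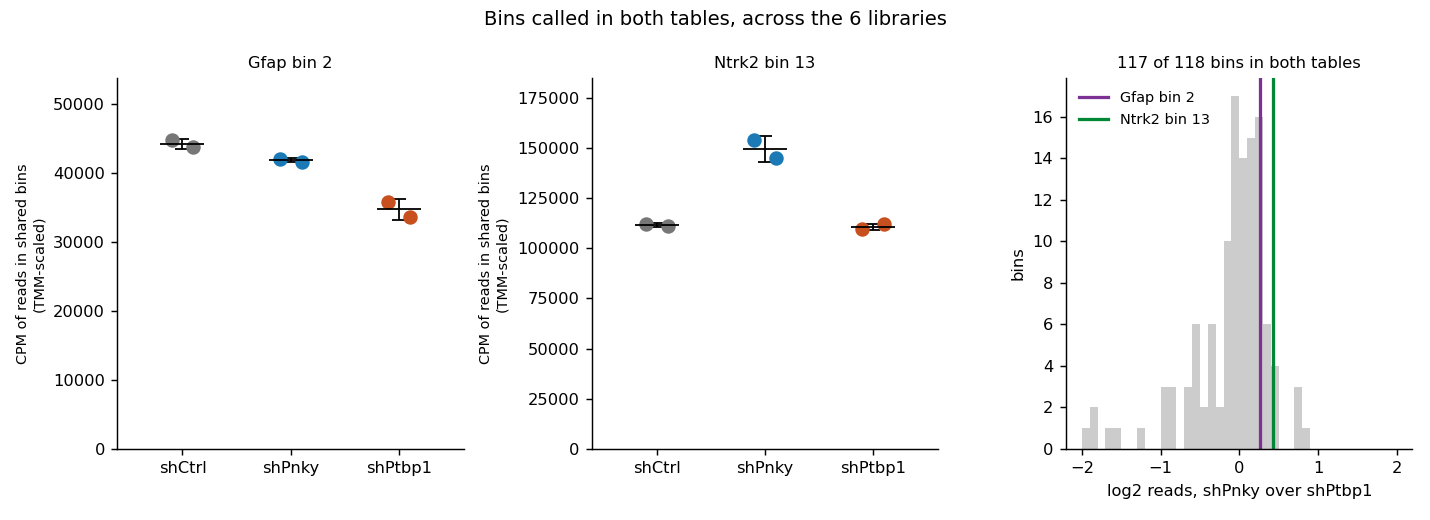
Left and centre, CPM of the reads in the 118 shared bins (TMM-scaled, y axis from 0) for bin 2 of Gfap and bin 13 of Ntrk2, with 1 point per library and the mean and SD of 2 libraries in black. Right, the number of shared bins by their log2 difference of reads between shPnky and shPtbp1 (117 of 118 bins lie within the limits of ±2), where Gfap stands at 0.27 and Ntrk2 at 0.43.

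Vim, the other intermediate filament gene, was listed for shPnky only, with its bin 5 (Entrez 22352). Read counts of this bin were 206569 and 184699 under the control hairpin and 261234 and 197525 after Pnky knockdown. It had the highest mean count (212507) and the lowest fitted dispersion (7.16e-06) of the 249 bins listed for shPnky in the authors' deposited table. The authors' deposited table gives it a log2 fold of -0.003, fitted usage values of 282.2 and 281.7 and an adjusted p of 0.00012 from their DEXSeq test. The bin alone took 10.09% and 10.04% of all listed reads under the control hairpin and 10.9% and 11.4% after Pnky knockdown.

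The reads of Vim bin 5 went the other way from its usage. On the TMM scale they stood at 99080 and 99270 CPM in shCtrl and at 109400 and 117000 in shPnky. Both knockdown libraries lay above both controls, and they lay further apart (SD 5373) than the controls (SD 133). The log2 change of the reads was 0.19 (SE 0.033) and was 0.14 without shPnky replicate 2. A lower listed usage of Vim bin 5 thus stood beside more reads in the bin. Usage is relative to the rest of the gene, whose reads were not analysed here.

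**Figure D3:**
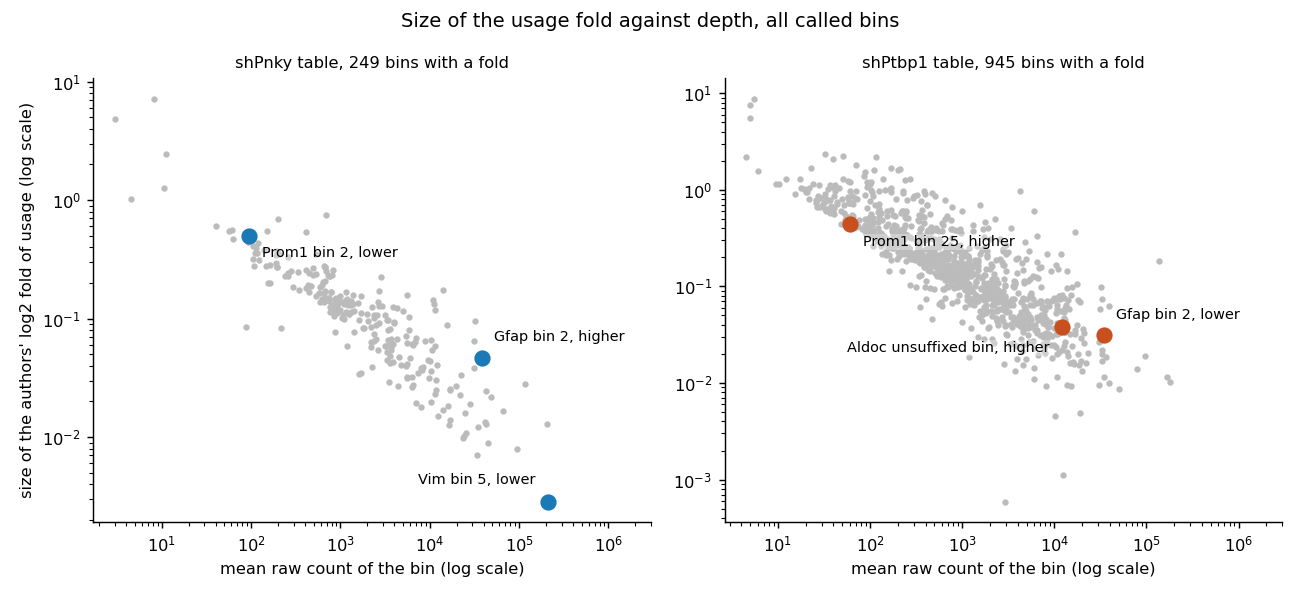
Size of the authors' log2 fold of usage (y axis, log scale) against the mean raw count of the bin (x axis, log scale) for all called bins with a fold, in grey, with the bins of the 4 genes in colour and their listed direction. In the shPnky table Vim bin 5 lies at the lower right end, with the highest count and the smallest fold, but sizes of these folds are not comparable between depths. Prom1 bin 2 lies at the upper left, with a mean count of 95 and a log2 fold of -0.50.

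Aldoc, the glycolytic member, was listed for shPtbp1 only, with its unsuffixed bin (Entrez 11676), the first of the gene in the numbering of the table. The controls had 9328 and 7897 reads in it and the shPtbp1 libraries 16298 and 15049, so that both knockdown libraries were far above both controls. On the TMM scale the values were 2472 and 2330 CPM in shCtrl and 4314 and 4086 in shPtbp1, with means of 2401 ± 100.2 and 4200 ± 161.6 (SD, n = 2). This is a 1.75-fold difference (log2 change 0.81, SE 0.037), exceeded by 175 of the 958 bins. Scaled only to the total of listed reads the log2 change was 0.91.

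The usage of that Aldoc bin was listed in the same direction as its reads. The authors' deposited table gives a log2 fold of 0.04 between fitted values (139.0 and 142.8, adjusted p = 9.37e-09 by their DEXSeq test). No other bin of Aldoc is listed, so the reads of the rest of the gene were not analysed here. In a list of 21 glycolysis genes that includes Aldoc, 1 gene had a called bin in each table: Aldoc itself in shPtbp1 and in shPnky Tpi1, which encodes triosephosphate isomerase: for its bin 1 the authors' deposited table gives a log2 fold of 0.02, and the reads were 21953 and 19731 in the controls against 31685 and 24498 after Pnky knockdown.

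**Figure D4:**
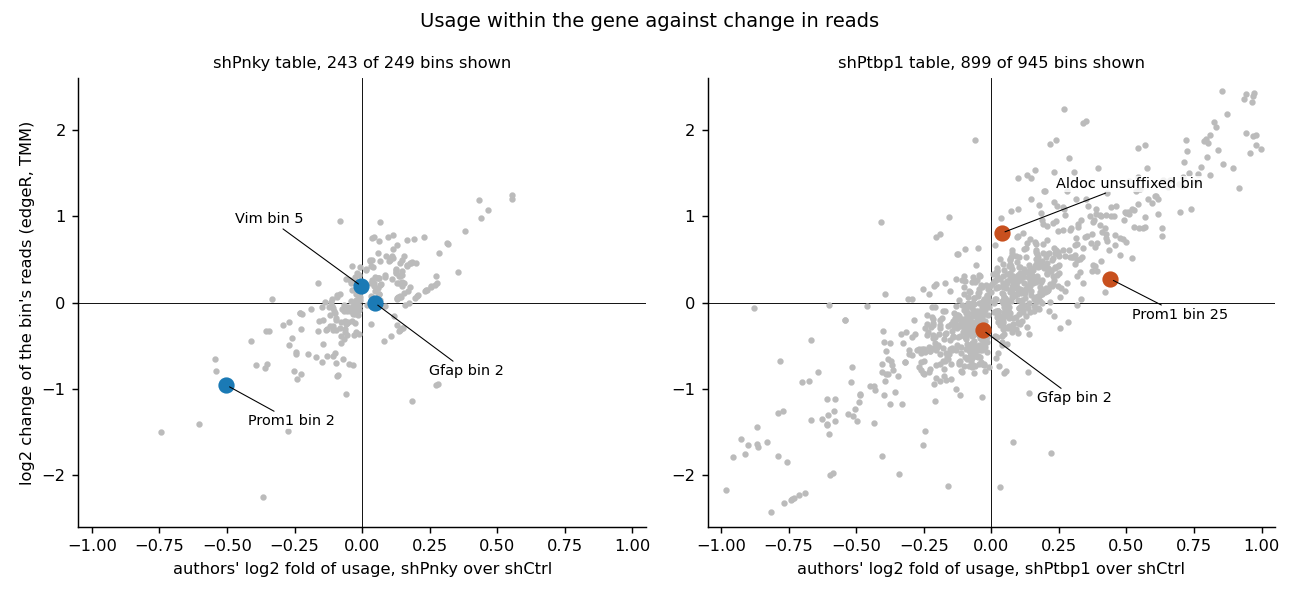
Log2 change of the reads of a bin (y axis, edgeR with TMM scaling) against the authors' log2 fold of its usage within the gene (x axis), for the called bins within ±1 in usage and ±2.5 in reads (243 of 249 for shPnky, 899 of 945 for shPtbp1). The axes are on different scales, since the usage fold is a ratio of fitted values that are not proportional to reads. Vim bin 5 lies just left of 0 in usage and above 0 in reads, Gfap bin 2 lies right of 0 in shPnky and left of 0 in shPtbp1, and the unsuffixed bin of Aldoc lies at 0.81 in reads with a usage fold of 0.04.

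Prom1 was listed in both tables, but with different bins. Bin 2 (Entrez 19126), listed for shPnky, had 125 and 123 reads in the controls and 80 and 52 after Pnky knockdown. Both knockdown libraries lay below both controls. The 95% Poisson intervals of the raw counts ran from 102.2 to 148.9 over the controls and from 38.8 to 99.6 over the knockdown libraries. These intervals cover counting error only and are not scaled for depth. Over 243 bins, the shPnky replicates spread more widely than counting error (chi-square over degrees of freedom 7.76). On the TMM scale the bin stood at 63.0 ± 4.35 CPM in shCtrl and 32.2 ± 1.91 in shPnky (SD, n = 2), a log2 change of -0.96 (SE 0.15). Only 9 of the 249 bins had a more negative change in reads. In the authors' deposited table its usage was lower as well, with a log2 fold of -0.50 (fitted usage 18.1 and 12.8, adjusted p = 6.46e-06 by their DEXSeq test).

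Prom1 bin 25, listed for shPtbp1, was the shallowest of the 5 bins and the one nearest to the authors' threshold. The controls had 56 and 51 reads in it and the shPtbp1 libraries 59 and 76. The 95% Poisson interval of the first shPtbp1 count (44.9 to 76.1), on raw reads, contained both control counts. The difference of that library from control was not tested. TMM-scaled values were 14.8 and 15.1 CPM in shCtrl and 15.6 and 20.6 in shPtbp1, a log2 change of 0.28 (SE 0.21) that was 0.06 without shPtbp1 replicate 2. Here too both knockdown libraries lay above both controls, at a change little larger than its SE. The authors' deposited table gives a higher usage, with a log2 fold of 0.44 (fitted usage 10.8 and 14.6) and an adjusted p of 0.00915 by their DEXSeq test. The other 5 listings of the 4 genes had adjusted p-values of 0.00012 or less, and bins outside the threshold were not analysed here.

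The 4 genes belong to a list of 44 neural stem cell and astrocyte markers. The tables do not give how many genes were tested, so the counts of called genes in this and the other lists cannot be read against a rate over all genes and are given as a description. The lists also hold the genes chosen here. In shPnky, 5 of the 44 had a called bin, 2 with a higher and 3 with a lower bin of smallest adjusted p. Of all 175 called genes, 69 were higher and 106 lower by the same kind of bin. Beside Gfap, Vim and Prom1 they were Ntrk2, which encodes the neurotrophin receptor TrkB, and Tnc, which encodes the matrix glycoprotein tenascin-C. Tnc bin 13 had 3577 and 3220 reads in the controls and 2356 and 1563 after Pnky knockdown, and the authors' deposited table lists its usage at a log2 fold of -0.09. In usage the 4 listed Tnc bins went both ways, with bin 12 lower and bins 16 and 24 higher (the authors' deposited table lists -0.09, 0.08 and 0.11). In reads all 4 were lower in shPnky, with TMM-scaled log2 changes from -0.85 to -0.38.

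In shPtbp1, 8 of the 44 markers had a called bin, 4 higher and 4 lower. Of all 602 called genes, 282 were higher and 308 lower, and the bin of smallest adjusted p of the rest had no listed fold. Beside Gfap, Aldoc and Prom1 these were Egfr and Fgfr2, receptors of the growth factors EGF and FGF, the transcription factor gene Nfia, the glutamate transporter gene Slc1a2 and Ntrk2. For Fgfr2 bin 15 the authors' deposited table lists a log2 fold of -0.29, and its reads were 334 and 284 in the controls and 337 and 324 after Ptbp1 knockdown. For Slc1a2 bin 11 the authors' deposited table lists 0.009, at 54482 and 49186 reads in the controls and 48754 and 51160 after Ptbp1 knockdown. Egfr, Nfia and Slc1a2 each had 2 listed bins, 1 higher and 1 lower in usage. The TMM-scaled reads had the same signs for Egfr and Nfia, while both Slc1a2 bins were lower in reads (log2 change -0.11 and -0.40).

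Ntrk2 bin 13 was the other bin of the marker list called in both tables. Its reads were 99925 and 88465 in the controls, 163984 and 111495 after Pnky knockdown and 98626 and 99970 after Ptbp1 knockdown. The authors' deposited tables list its usage at a log2 fold of 0.03 for shPnky and -0.02 for shPtbp1, with the same signs as those of Gfap bin 2. Over the shared bins its reads were 1.35-fold higher in shPnky than in shPtbp1 (149500 ± 6311 against 110700 ± 1639 CPM, SD, n = 2; log2 difference 0.43, SE 0.031, edgeR adjusted p = 2.62e-05). Of the shPtbp1 libraries of Ntrk2, 1 lay below both controls and 1 between them (109500 and 111900 against 112100 and 111000), whereas both of Gfap lay below.

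**Figure D5:**
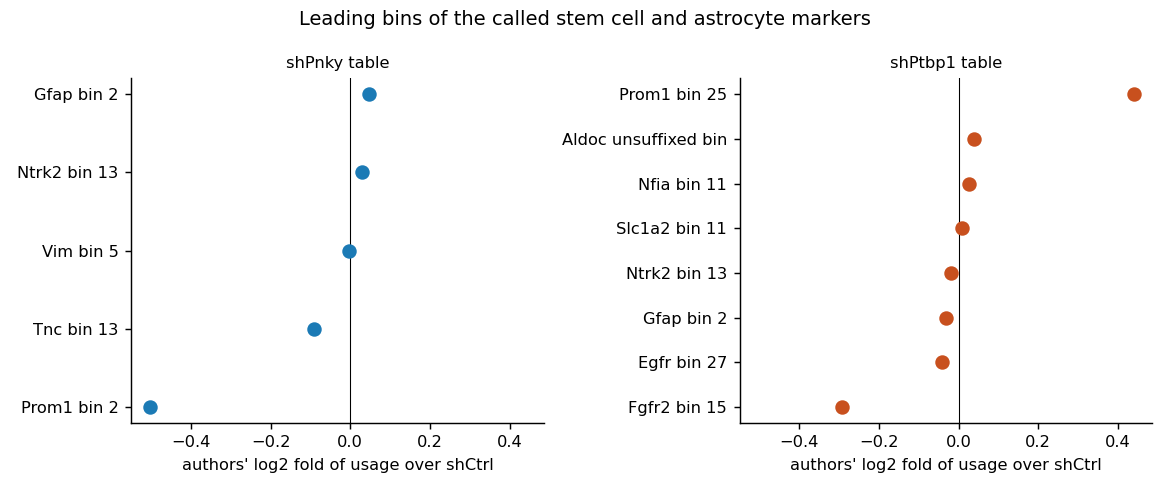
The authors' log2 fold of usage (x axis) of the bin with the smallest adjusted p, for each of the 44 stem cell and astrocyte markers with a called bin, in the shPnky table (5 genes) and the shPtbp1 table (8 genes). Bins lie on both sides of 0 in each table, and those of Prom1 are the lowest in shPnky (-0.50) and the highest in shPtbp1 (0.44), where they also have the fewest reads of the bins shown.

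Among 20 intermediate filament and cytolinker genes, Gfap and Vim were the 2 called in shPnky. In shPtbp1 the 3 called were Gfap and 2 genes of cytolinkers, large proteins that tie filaments to other structures. These were Dst, which encodes dystonin (bin 94, 389 and 281 reads in the controls, 751 and 668 after Ptbp1 knockdown, listed at a log2 fold of 0.39 by the authors' deposited table), and Plec, which encodes plectin. Plec bin 31 had no read in shCtrl and 8 and 14 in shPtbp1. Of 21 apical membrane and adherens junction genes, Prom1 and the catenin gene Ctnnd1 were called in each table. The leading bin of Ctnnd1 in shPtbp1 was bin 18, with 53 and 36 reads in the controls and 143 and 176 after Ptbp1 knockdown, for which the authors' deposited table lists 1.00. In shPnky it was bin 9, which was also listed for shPtbp1. Ctnnd1 bin 9 had 264 and 234 reads in the controls, 196 and 118 after Pnky knockdown and 403 and 472 after Ptbp1 knockdown. The authors' deposited tables list its usage at a log2 fold of -0.35 for shPnky and 0.48 for shPtbp1.

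Markers of other cell types that such a culture could hold were looked up in the same way. None of 8 oligodendrocyte-lineage, 5 microglial, 5 endothelial and pericyte and 5 ependymal markers had a bin in either table. Of 10 neuroblast and neuron markers, Ncam1 alone was listed, in shPtbp1. It had 14 listed bins, of which 10 were higher in usage and the rest lower. Its bin of smallest adjusted p, the unsuffixed one, was among the lower. That bin had 8997 and 8490 reads in the controls and 3444 and 3376 after Ptbp1 knockdown. The tables hold no uncalled bins, so the levels of these markers, and their part in the differences of Gfap, Vim, Aldoc and Prom1, were not tested. Levels of the 4 genes were not compared with each other, because the tables give no bin lengths.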

How the data were processed

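The members and gene lists were chosen with earlier results of these data known. Per the submitters' processing notes, reads were handled on mm9 with tools among which are TopHat2 2.0.10 and Cuffdiff 2.1.1. The read counter, the bin annotation and the version of the DEXSeq package were not given in the sources used here. Per the file headers, each deposited row holds raw counts of 4 libraries, the p-value of the authors' test with its adjusted p-value, a log2 fold of usage, and model scores (fitted usage, dispersion). The authors' listed mean is the mean of the 4 raw counts. Bin numbers were read from row names, and bins could not be placed on exons: the tables hold no coordinates and the reference is of a different build, so no sequence is printed. The ratio of adjusted to raw p gave the numbers of bins the authors tested, 160603 for shPnky and 160290 for shPtbp1.

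Each of the 4 genes has 1 listed bin in any table that lists it, so the bin's share of its gene's listed reads is always 100% and is not given. Changes in reads came from edgeR 4.0.16 (R 4.3.3, TMM scaling, quasi-likelihood fit) over all bins of a table. The direct contrast used all 6 libraries over the 118 shared bins, whose control counts are identical in both tables, at an adjusted p under 0.05. These bins were all called against control, and scaling rests on called bins. On simulated data with a log2 fold of 1 and a dispersion of 0.005, the direct contrast recovered 24 of 24 changed bins. It called 1 of 94 unchanged bins, over 118 bins. In the real contrast 62.7% of the 118 bins differed, and Gfap bin 2 differed by 0.27. The simulation therefore does not show how smaller differences, or calls where most bins differ, would fare. Alternatives were DESeq2 1.42.0 and its size factors, total-read scaling, a prior count of 2, a mean count of at least 50, a replicate block, leaving out each library and an adjusted p under 0.001. The genes named are the 4 members, Ptbp1, and every gene of the lists with a called bin, by its bin of smallest adjusted p; Ctnnd1 bin 9 in shPtbp1 was added after its values were seen. A chi-square test of replicate counts, divided by its degrees of freedom, gave 2.44 to 7.76, above sampling noise, and each library counted as its own replicate.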

Additional observations from a re-analysis of the deposited data

Results flagged for a closer look

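Reads of Gfap bin 2 differed between the 2 knockdowns when these were compared directly, by 0.27 on the log2 scale (shPnky over shPtbp1, edgeR adjusted p = 0.000325), with both shPnky libraries above both shPtbp1 libraries. Reads of Ntrk2 bin 13 differed in the same comparison by 0.43 (edgeR adjusted p = 2.62e-05), again with both shPnky libraries above both shPtbp1 libraries. In that test 62.7% of the 118 shared bins differed and 33.1% were higher in shPnky. How many of the 118 had libraries separated in this way was not counted. By p-value, Gfap bin 2 ranked 36th and Ntrk2 bin 13 ranked 13th of the 118. The same counts chose these bins against control, so the p-values are not independent of that choice.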

How the results depend on the processing

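The direct difference of Gfap bin 2 kept its direction and stayed past the threshold under every alternative run, from 0.16 to 0.31 on the log2 scale, with edgeR or DESeq2 adjusted p-values from 1.64e-12 to 0.00513. All of these runs used the counts that chose the bin against control. They show how the value depends on the processing and are not independent of that choice. The count of shared bins that differed was 63 to 77, against 74. For usage within genes, 18 of 65 shared bins differed, none of them in the 4 genes (Gfap has a single shared bin), and 11 to 19 did so when 1 library was left out. The log2 change of reads of Gfap bin 2 in shPnky was -0.0387 with DESeq2 size factors and in the DESeq2 fit and -0.0473 with total scaling, and ran from -0.0204 to 0.0116 with 1 library left out, so its sign is not settled. With total scaling the value was -0.212 for Gfap bin 2 and 0.914 for Aldoc in shPtbp1. Leaving out 1 library gave 0.137 to 0.219 for Vim bin 5 and 0.0639 to 0.465 for Prom1 bin 25. Of the 6 listings, 5 kept an adjusted p under 0.001. In the labels, replicates of different groups share only a number, and whether they were paired is not stated. The log2 ratios of replicate 1 to 2 correlated over 117 bins at -0.05 (shCtrl with shPnky), 0.22 (shCtrl with shPtbp1) and 0.01 (shPnky with shPtbp1). These bins were all called ones, so the values do not settle whether there was a pairing. With the replicate block, the direct difference of Gfap bin 2 was 0.269 (edgeR adjusted p = 0.00119), 71 shared bins differed in reads and 16 in usage. The depth of the Prom1 bins, 51 to 125 reads per library, limits what can be said of them.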
